A study of Mus musculus with 12 samples.

Results

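Klrb1c, Klrc1, Klrc2, Klrd1, Klre1, Klrk1 and Klrg1 encode C-type lectin-like receptors of natural killer (NK) cells outside the Ly49 family. These 7 genes were chosen by name, and all 7 were among the 24781 gene symbols of the deposited mouse expression table. Of the 7, 5 were tested, because Klrc2 and Klrg1 did not exceed 1 unit in at least 3 libraries. The table covers iNKT cells (invariant natural killer T cells), which carry a semi-invariant T cell receptor for lipids shown on CD1d, from mice aged 6 weeks. Cells of every group had been sorted as positive for TCRbeta, NK1.1, CXCR6 and binding of CD1d tetramer, and the CD244+ and CD244- cells were collected apart, 100 cells per library. The 12 libraries formed 4 groups of 3, namely lung CD244+, lung CD244-, thymus CD244+ and thymus CD244- cells. The labels give no strain or sex, and call the replicates independent library preparations without naming animals. The p-values therefore speak only of the spread among these libraries, part or all of which may be technical.

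Receptors of this family sit on NK cells and on some T cells, and their balance of activating and inhibitory signals sets the cell's threshold for killing and cytokine release. NKG2A, the product of Klrc1, pairs with CD94, the product of Klrd1, binds the non-classical MHC class I molecule Qa-1 and inhibits through the phosphatase SHP-1. NKG2C, from Klrc2, pairs with the same CD94 chain but activates through the adaptor DAP12, and NKG2D, from Klrk1, activates through DAP10 or DAP12. NK1.1, from Klrb1c, is an activating receptor coupled to the Fc receptor gamma chain and is the classical surface marker of NK and NKT cells in some mouse strains. KLRE1 forms pairs with the KLRI1 or KLRI2 chain, and KLRG1 is an inhibitory receptor for cadherins.

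In the mouse annotation GENCODE M21 (GRCm38, the mm10 build) all 7 genes are protein coding genes of chromosome 6. Klre1 (chr6:129577905-129585827, plus strand), Klrd1 (chr6:129591782-129598775, plus strand), Klrk1 (chr6:129610323-129623864, minus strand), Klrc2 (chr6:129647496-129660689, minus strand) and Klrc1 (chr6:129666015-129678973, minus strand) stand within 101 kb. Klrb1c (chr6:128778485-128789215, minus strand) ends 789 kb before Klre1, and Klrg1 (chr6:122270596-122282882, minus strand) ends 6496 kb before Klrb1c. Klrb1c overlaps the gene Gm44511 on the same strand, and reads of the 2 genes may not have been told apart. Of the nonzero values of Klrb1c 58.3% were not whole molecules, against 5.11% over all genes, while Klrd1, Klre1, Klrk1 and Klrg1 had only whole molecules. Klrb1c is the member whose values are least certain in this respect. Of its relatives outside the 7 genes, Klrb1a had 100% and Klrb1b 70% of nonzero values not whole. Which genes shared these molecules was not tested.

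Upstream sequences were found for 5 of the 7 genes in RefSeq (GRCm38.p6) and are shown because genes of 1 short stretch of chromosome moved in unlike ways in the results that follow. The searched window was the 250 bases before the RefSeq start of each gene. Capitals mark the core motif of RUNX factors, TGTGGT, or its complement ACCACA. The stretch before Klrc2 and Klre1 is shown only around the motif, because 93 and 250 of their 250 bases lie in annotated exons, and 5 exon bases were left off the Klrb1c window. By GENCODE positions the printed stretches of Klrb1c, Klrc2 and Klre1 lie inside the genes, and those of Klrc2 and Klre1 lie in exons.
Klrc1 (chr6:129678974-129679223, minus strand): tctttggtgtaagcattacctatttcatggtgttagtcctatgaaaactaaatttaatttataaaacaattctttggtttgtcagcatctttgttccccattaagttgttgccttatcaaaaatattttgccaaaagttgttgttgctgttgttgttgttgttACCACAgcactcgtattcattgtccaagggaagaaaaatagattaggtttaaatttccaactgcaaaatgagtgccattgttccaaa
Klrc2 (chr6:129660615-129660644, minus strand): ttcaatagaatcACCACAgcatagaacaca
Klre1 (chr6:129577972-129578001, plus strand): ttgtgtttaagcTGTGGTtccagagagtca
Klrk1 (chr6:129623865-129624114, minus strand): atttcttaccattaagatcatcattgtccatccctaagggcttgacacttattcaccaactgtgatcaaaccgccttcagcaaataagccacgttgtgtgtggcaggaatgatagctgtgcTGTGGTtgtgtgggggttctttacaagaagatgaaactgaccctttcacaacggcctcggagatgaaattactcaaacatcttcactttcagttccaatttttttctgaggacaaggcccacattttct
Klrb1c (chr6:128788642-128788886, minus strand): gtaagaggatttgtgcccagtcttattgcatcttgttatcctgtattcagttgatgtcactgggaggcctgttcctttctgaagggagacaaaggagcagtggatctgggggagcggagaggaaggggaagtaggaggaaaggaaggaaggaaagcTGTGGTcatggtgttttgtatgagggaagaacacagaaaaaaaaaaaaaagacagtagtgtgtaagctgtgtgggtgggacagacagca
The RUNX core was present on either strand in 5 of 5 windows, not all of them upstream by GENCODE, and in 14% of 32851 mouse promoter windows of the same length. It lay 87 bases before the start of Klrc1, 129 bases before that of Klrk1, 89 bases before that of Klrb1c and 229 bases before that of Klre1. Klrc2 held it at 36 and at 9 bases before its start. The T-box motif GGTGTGA (complement TCACACC) was in 0 of 5 windows and in 3.33% of all promoters. The ETS core AGGAAG (complement CTTCCT) was in 1 of 5 windows, that of Klrb1c with 3 matches, and in 29.5% of all promoters. Of the 3 ETS matches, those at 105 and 101 bases before the start overlap each other, and none overlaps the RUNX core. The motifs were chosen after these sequences had been seen, and a match describes the letters only.

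Libraries held 29696 to 71789 molecules and 5622 to 7525 genes with a value, with lung CD244- libraries the shallowest. Values are given in deposited units, which the authors scaled so that every lung library sums to 19342.9 and every thymus library to 26890.5, a ratio of 1.39, thymus over lung. The value of 3 molecules lay between 1.12 and 1.95 units. Cd244 itself had 1, 1 and 0 molecules in lung CD244+ libraries and none in lung CD244- libraries, against 8, 1 and 4 in thymus CD244+ and none in thymus CD244- libraries. Macrophage markers, 10 of 10 of them, were found in lung CD244+ libraries at 55.4 to 118 molecules per 10000, against 0 to 0.337 in lung CD244- libraries, and all 10 were at 0 in the thymus. T cell markers, 7 of 10 of which are in the table, summed to 8.23 to 14.5 per 10000 in lung CD244+ libraries, against 20.5 to 25.4 in lung CD244-, 18.2 to 22.8 in thymus CD244+ and 22.2 to 24.0 in thymus CD244- libraries. Cxcr6, a gate gene, had 15, 1 and 1 molecules in lung CD244+ libraries, against 10, 13 and 15 in lung CD244- libraries, so that lung CD244+ libraries 2 and 3 went against their label. Of 8 NK cell markers, the defining gene Ncr1 was at 0 in all but 1 library (1 molecule in lung CD244+ library 3), and Eomes had 1 molecule each in 2 libraries. The 8 NK markers summed to 4.47 to 16.9 per 10000 in lung CD244+ libraries, against 2.32 to 4.97 in lung CD244-, and to 7.07 to 7.17 in thymus CD244+, against 1.35 to 3.2 in thymus CD244- libraries. Most of these molecules were of 2 markers, Gzma, the gene of granzyme A, with 124 in lung CD244+, 4 in lung CD244-, 98.25 in thymus CD244+ and 3.25 in thymus CD244- cells, and Txk with 30, 28, 34 and 33.5 in the same groups. In bulk libraries fewer cells of a type and less RNA per cell cannot be told apart.

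Klre1 was the member that followed CD244, with about 3 times as large a share of molecules in CD244+ as in CD244- cells of both tissues. Klrb1c, Klrd1 and Klrk1 were lower in lung than in thymus in either CD244 subset on the deposited scale. When libraries were scaled to T cell receptor complex genes, of these only Klrb1c in CD244+ cells passed (log2 fold change -0.89, limma adjusted p = 0.0320). Under that scaling Klrd1 had -0.36 in CD244+ and -1.02 in CD244- cells (limma adjusted p = 0.485 and 0.150), Klrb1c had -0.73 in CD244- cells (0.280), and Klrk1 had 0.0727 in CD244+ and -0.30 in CD244- cells (0.893 and 0.828). Throughout, a CD244 effect means the difference of CD244+ minus CD244- sorted cells, since CD244 itself was not altered. That of Klrc1 differed between the tissues, lower in lung and higher in thymus on the deposited scale, with the lung value at 0.0188 under T cell receptor scaling. Klrc2 and Klrg1 were nearly absent.

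**Figure D1:**
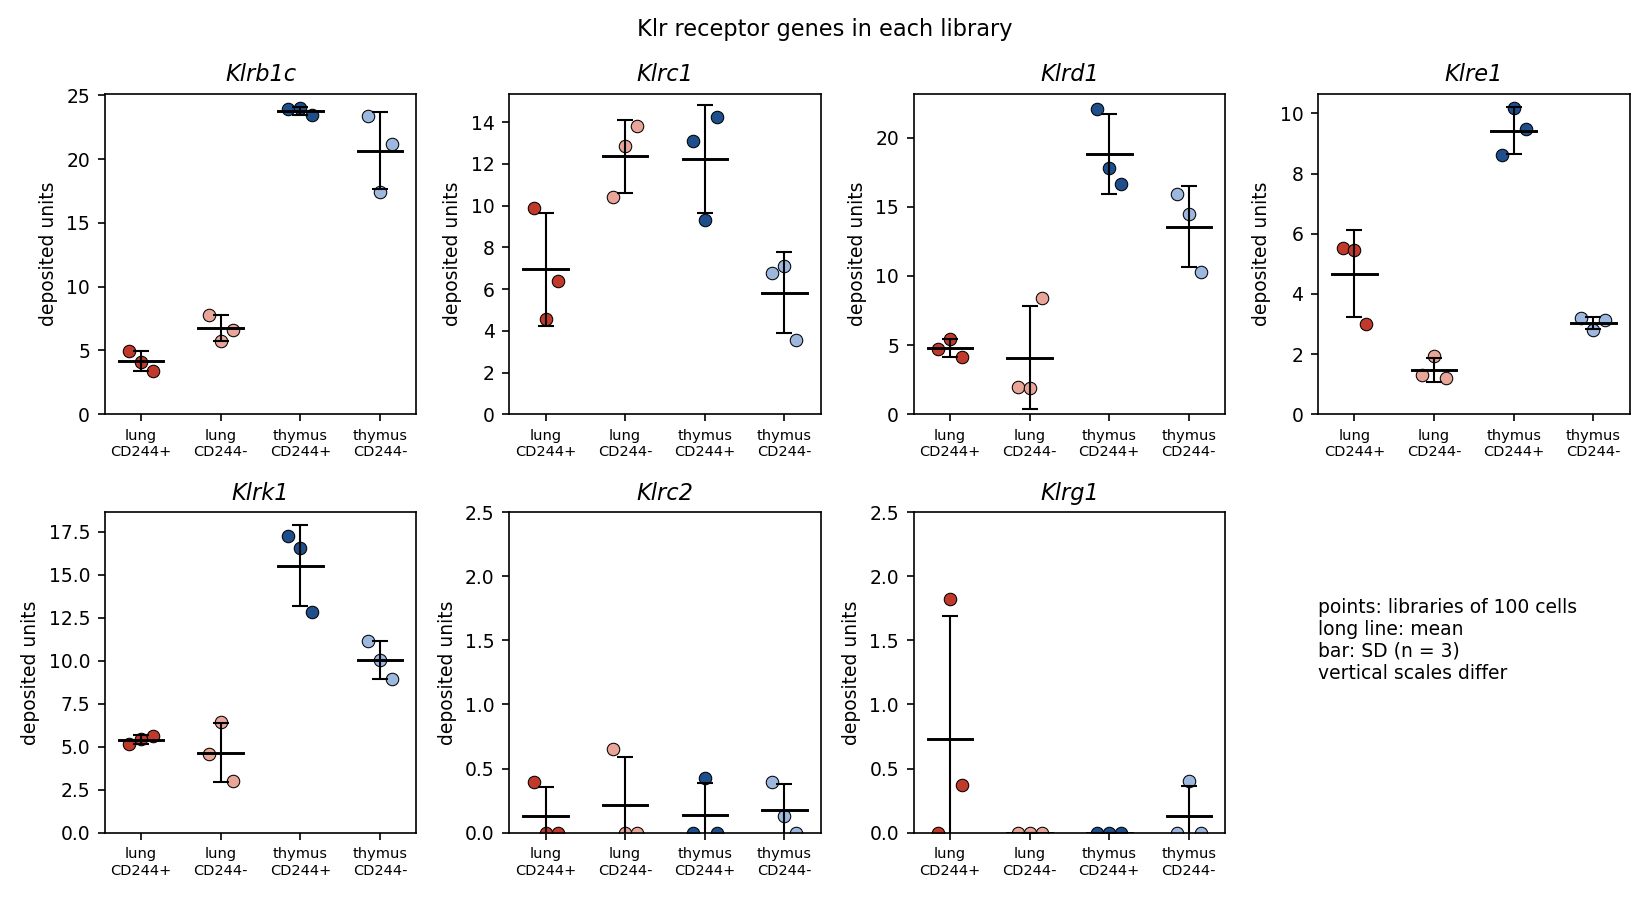
Deposited units (vertical axis, scales differ) of the 7 Klr genes in each of the 12 libraries, with the group mean as a long line and the SD as a bar (n = 3). Klre1 was high in the CD244+ group of each tissue, Klrb1c, Klrd1 and Klrk1 were high in thymus on this scale, and Klrc2 and Klrg1 stayed below 2 units in every library.

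The inhibitory pair CD94 and NKG2A comes from Klrd1 and Klrc1. Klrd1 had 4.75, 5.46 and 4.14 units in lung CD244+ libraries and 1.95, 1.92 and 8.41 units in lung CD244- libraries. In thymus it had 22.1, 17.8 and 16.6 units in CD244+ libraries and 15.9, 14.5 and 10.3 units in CD244- libraries. In deposited units the thymus groups lay apart from each other and above every lung library. The lung groups overlapped because lung CD244- library 3 was the highest of the lung libraries. As a share of molecules that library, at 4.35 per 10000, was above thymus CD244- library 3, at 3.83. The means were 4.78 ± 0.662, 4.10 ± 3.74, 18.8 ± 2.88 and 13.6 ± 2.93 units in lung CD244+, lung CD244-, thymus CD244+ and thymus CD244- cells (SD, n = 3 each). Lung minus thymus, Klrd1 had a log2 fold change of -1.78 ± 0.29 (SE) in CD244+ cells (limma adjusted p = 9.07e-07) and of -1.73 ± 0.29 in CD244- cells (limma adjusted p = 3.13e-06). All fold changes are on the log2(value + 1) scale, which understates the change of low genes. CD244+ minus CD244-, the log2 fold change was 0.41 ± 0.29 in lung (limma adjusted p = 0.480) and 0.46 ± 0.29 in thymus (limma adjusted p = 0.970), with 95% intervals of -0.17 to 0.99 and -0.12 to 1.04. Without lung CD244- library 3 the lung value was 0.97 and passed (limma adjusted p = 0.0236), as it did with T cell receptor scaling (1.245, limma adjusted p = 0.0114), under which the median of all genes was 0.59.

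Klrc1, the gene of the partner chain NKG2A, had 9.90, 4.55 and 6.39 units in lung CD244+ libraries and 10.4, 12.8 and 13.8 units in lung CD244- libraries. In thymus it had 13.1, 9.33 and 14.2 units in CD244+ libraries and 6.77, 7.11 and 3.58 units in CD244- libraries. In lung every CD244+ library was below every CD244- library, and in thymus every CD244+ library was above every CD244- library. The CD244 effect was -0.80 ± 0.27 in lung (limma adjusted p = 0.0523) and 0.98 ± 0.27 in thymus (limma adjusted p = 0.116) on the log2 scale, and neither passed the threshold of 0.05. The lung effect passed without lung CD244+ library 1 (-1.05, limma adjusted p = 0.0157) or thymus CD244- library 3 (-0.80, limma adjusted p = 0.0420). The difference between these 2 effects did pass, at -1.78 ± 0.39 on the log2 scale (95% interval -2.55 to -1.01, limma adjusted p = 0.00129). As a share of all molecules, lung CD244+ cells held 52 Klrc1 molecules and lung CD244- cells 59 in fewer total molecules, a ratio of shares of 0.568 (exact 95% counting interval 0.384 to 0.839). Thymus CD244+ cells held 87 and thymus CD244- cells 42.67, which was rounded to 43 for a ratio of 2.05 (interval 1.41 to 3.03). The interaction held whichever 1 of the 12 libraries was left out, but not with lung CD244+ library 1 alone in its group (-1.27, limma adjusted p = 0.230), where that library is assumed to vary like the others. On 9 libraries it was not called by edgeR (adjusted p = 0.0631) or DESeq2 (adjusted p = 0.419). Lung CD244+ libraries were also those with macrophage transcripts and fewer T cell transcripts, whose part in the interaction was not tested, and scaling to T cell receptor complex genes gave a limma adjusted p of 0.212.

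Between tissues Klrc1 went against the other members in CD244- cells. It had a log2 fold change of 1.01 ± 0.27, lung minus thymus (limma adjusted p = 0.00669), with every lung CD244- library above every thymus CD244- library and a ratio of shares of 2.90 (interval 1.92 to 4.40). It missed the threshold without thymus CD244- library 3 (limma adjusted p = 0.109). In CD244+ cells the lung and thymus libraries overlapped, at 4.55 to 9.90 and 9.33 to 14.2 units, and the fold change of -0.77 ± 0.27 (limma adjusted p = 0.0419) did not pass at a common library total, where it was -0.35 (limma adjusted p = 0.544), nor without lung CD244+ library 2 or 3 or thymus CD244+ library 1 or 3 (limma adjusted p = 0.103 to 0.272). Klrc1 was highest in lung CD244- cells (12.4 ± 1.75 units), followed by thymus CD244+ (12.2 ± 2.58), lung CD244+ (6.95 ± 2.72) and thymus CD244- cells (5.82 ± 1.95 units, SD, n = 3 each). In deposited units each neighbour in that order overlapped the next. As shares of molecules, every lung CD244- library (5.39 to 7.14 per 10000) lay above every thymus CD244+ library (3.47 to 5.30).

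Klre1, which encodes a lectin-like chain that pairs with KLRI1 or KLRI2, had 5.54, 5.46 and 3.01 units in lung CD244+ libraries and 1.3, 1.92 and 1.2 units in lung CD244- libraries. In thymus it had 8.62, 10.2 and 9.50 units in CD244+ libraries and 3.19, 2.82 and 3.13 units in CD244- libraries. Every CD244+ library lay above every CD244- library of the same tissue. In deposited units the lung CD244+ group overlapped only the thymus CD244- group. Lung CD244- values of 2, 3 and 2 molecules are at or under the floor of 3 molecules.

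The CD244 effect on Klre1 was 1.17 ± 0.33 in lung (95% interval 0.51 to 1.83, limma adjusted p = 0.0117) and 1.37 ± 0.33 in thymus (95% interval 0.71 to 2.03, limma adjusted p = 0.0281) on the log2 scale. Averaged over both tissues it was 1.27 ± 0.23 (limma adjusted p = 4.86e-05). In molecules, 34 of lung CD244+ stood against 7 of lung CD244- cells, a ratio of shares of 3.13 (exact 95% counting interval 1.37 to 8.37), and 67 of thymus CD244+ against 22 of thymus CD244- cells, a ratio of 3.09 (interval 1.88 to 5.25). The difference of the effects between tissues was -0.19 ± 0.47 (95% interval -1.13 to 0.74, limma adjusted p = 0.921). The averaged effect passed in 24 of 24 alternatives, the lung effect in 21 of 25 and the thymus effect in 13 of 25. The thymus call was lost without any 1 of the 6 thymus libraries (limma adjusted p = 0.0915 to 0.201) and the lung call without lung CD244+ library 1 (0.0645) or 2 (0.0703). With lung CD244+ library 1 alone in its group the lung effect was 1.41 (limma adjusted p = 0.0741) and the averaged effect 1.39 (limma adjusted p = 0.00121). Lung minus thymus, Klre1 had -0.91 ± 0.33 in CD244+ cells (limma adjusted p = 0.0494), a call kept in 7 of 25 alternatives, and -0.72 ± 0.33 in CD244- cells (limma adjusted p = 0.162). The NK marker sum, most of which was Gzma in CD244+ cells, was also higher in the CD244+ group of each tissue, and its part in the Klre1 difference was not tested. Macrophage markers were at 0 in both thymus groups and present in lung CD244+ libraries, where their part was not tested.

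Klri2, the gene of a chain that pairs with KLRE1, had 3 molecules in lung CD244+, 3 in lung CD244-, 9 in thymus CD244+ and 4 in thymus CD244- cells. Its CD244 effects were -0.15 in lung and 0.59 in thymus on the log2 scale, and neither passed the test (limma adjusted p = 0.898 and 0.992).

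Klrk1, the gene of the activating receptor NKG2D, had 5.15, 5.46 and 5.64 units in lung CD244+ libraries and 4.56, 6.42 and 3.00 units in lung CD244- libraries. In thymus it had 17.2, 16.5 and 12.8 units in CD244+ libraries and 11.2, 10.1 and 8.95 units in CD244- libraries. All thymus libraries were above all lung libraries, and the 2 thymus groups lay apart while the lung groups overlapped. The order of the group means was thymus CD244+ (15.5 ± 2.37 units), thymus CD244- (10.1 ± 1.11), lung CD244+ (5.42 ± 0.250) and lung CD244- cells (4.66 ± 1.71 units, SD, n = 3 each). Lung minus thymus, Klrk1 fell by 1.36 ± 0.27 on the log2 scale in CD244+ cells (limma adjusted p = 6.08e-05) and by 1.01 ± 0.27 in CD244- cells (limma adjusted p = 0.00654). At a common library total the CD244+ fold change was -0.93 (limma adjusted p = 0.0133) and the CD244- one -0.60 (limma adjusted p = 0.227), so that the CD244- call did not hold without the authors' scaling, nor without lung CD244- library 3 (-0.78, limma adjusted p = 0.0690). On 9 libraries edgeR gave an adjusted p of 0.0630 and DESeq2 of 0.346 for CD244+ cells. The CD244 effect was 0.23 ± 0.27 in lung (95% interval -0.32 to 0.77) and 0.57 ± 0.27 in thymus (0.03 to 1.12), with limma adjusted p = 0.726 and 0.810, and the lung effect passed with T cell receptor scaling (1.07, limma adjusted p = 0.0201).

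Hcst encodes DAP10, the adaptor of NKG2D. It had 8.01 ± 2.15 units in lung CD244+, 11.6 ± 2.68 in lung CD244-, 21.1 ± 2.30 in thymus CD244+ and 17.9 ± 1.73 units in thymus CD244- cells (SD, n = 3 each). Hcst fell by 1.31 ± 0.23 in CD244+ cells, lung minus thymus (limma adjusted p = 2.98e-06), and had -0.60 ± 0.23 in CD244- cells (limma adjusted p = 0.0725). Hcst molecules per Klrk1 molecule were 1.07 to 2 in lung CD244+, 1.4 to 3.8 in lung CD244-, 1.13 to 1.67 in thymus CD244+ and 1.43 to 2.15 in thymus CD244- libraries, ranges that overlap. The adaptor DAP12 was seen mainly where macrophage markers were, since Tyrobp had 63 molecules in lung CD244+ cells and 1, 7 and 2 in lung CD244-, thymus CD244+ and thymus CD244- cells.

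Klrb1c encodes NK1.1, on which all groups had been sorted. It had 4.95, 4.09 and 3.38 units in lung CD244+ libraries and 7.82, 5.77 and 6.61 units in lung CD244- libraries. In thymus it had 23.9, 24.0 and 23.4 units in CD244+ libraries and 23.4, 17.4 and 21.2 units in CD244- libraries. No lung library reached any thymus library. The order was thymus CD244+, thymus CD244-, lung CD244- and lung CD244+, with no overlap between neighbours. The thymus groups were parted only by 23.43 units in thymus CD244+ library 3 against 23.38 in thymus CD244- library 1. That gap is below the value of a single molecule, 0.475 and 0.399 units in these libraries. Lung minus thymus, the log2 fold change was -2.28 ± 0.24 in CD244+ cells (limma adjusted p = 3.50e-13) and -1.48 ± 0.24 in CD244- cells (limma adjusted p = 1.14e-06). As shares of molecules, the ratios of lung over thymus were 0.237 (exact 95% counting interval 0.155 to 0.351) in CD244+ and 0.454 (0.3 to 0.668) in CD244- cells. The CD244 effect was -0.59 ± 0.24 in lung (limma adjusted p = 0.124) and 0.20 ± 0.24 in thymus (limma adjusted p = 1), neither past the threshold, and their difference of -0.80 ± 0.34 did not pass either (limma adjusted p = 0.262).

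Fcer1g, whose product is the Fc receptor gamma chain that couples NK1.1, rose with CD244 in both tissues. It had 5.94, 11.9 and 13.3 units in lung CD244+ libraries, against 0, 1.28 and 0.601 in lung CD244- libraries. In thymus it had 8.99, 8.48 and 12.8 units in CD244+ libraries, against 1.59, 0.402 and 2.24 in CD244- libraries. The groups did not overlap in either tissue, and the log2 fold changes were 2.82 ± 0.36 in lung (limma adjusted p = 1.50e-09) and 2.27 ± 0.36 in thymus (limma adjusted p = 8.06e-06). Macrophages also express Fcer1g, and their markers were present in the lung CD244+ libraries and at 0 in both thymus groups. The NK marker sum was 7.07 to 7.17 per 10000 in thymus CD244+, against 1.35 to 3.2 in thymus CD244- libraries. The part of macrophages or NK cells in the Fcer1g values was not tested.

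The activating partner of CD94, Klrc2, had 1, 0 and 0 molecules in lung CD244+ libraries and 1, 0 and 0 in lung CD244- libraries. It had 0, 1 and 0 molecules in thymus CD244+ libraries and 1, 0.33 and 0 in thymus CD244- libraries. Differences were not detectable at this depth, since the counting interval of the lung ratio ran from 0.00821 to 50.6 and that of the thymus ratio from 0.0129 to 79.6. Klrg1, which marks terminally differentiated NK and T cells, had 0, 4 and 1 molecules in lung CD244+ libraries, none in lung CD244- and thymus CD244+ libraries, and 0, 1 and 0 in thymus CD244- libraries. The zero counts allow up to 0.326 molecules per 10000 in lung CD244- and 0.156 in thymus CD244+ cells. The 5 molecules of lung CD244+ cells do not set them apart from lung CD244- cells (lower limit of the ratio 0.591). Against thymus CD244+ cells the lower limit was 1.23, which covers counting error only, and 4 of the 5 molecules came from lung CD244+ library 2.

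The number of members called stands here beside the share of all 5138 tested genes called. In lung, 1 of the 5 tested members (Klre1) was called with CD244, against 8.43% of all genes, and the groups did not overlap for 3 of 5, against 21.4%. In thymus Klre1 was again the 1 member called, against 0.409% of all genes, and averaged over both tissues it was 1 of 5, against 4.71%. The thymus groups did not overlap for 5 of 5 members, against 11.9% of all genes, and all 5 were higher in CD244+ libraries, against 5.47%. For Klrb1c the gap was below a molecule, at 23.43 against 23.38 units. Each of the 5 exceeded 1 unit in all 12 libraries, while a tested gene needed only 3. The members and all tested genes are therefore not matched for level. For 3 libraries on either side, the smallest p of an exact permutation test is 0.1. Lung minus thymus, 5 of 5 members were called in CD244+ cells, against 14.9% of all genes, and all 5 were lower, against 9.61%, but 3 of 5 were called at a common library total and Klrc1, Klre1 and Klrk1 turned sign with scaling to T cell receptor genes. For 4 of 5 the CD244+ groups did not overlap, against 30.2% of all genes, and these 4 were lower in lung, against 21.8%. In CD244- cells 4 of 5 were called, against 10.7% of all genes, of which 3 were lower, against 8.52%, and 1 was higher, against 2.18%. The CD244- groups did not overlap for 5 of 5 in deposited units, against 25.4%, but those of Klrd1 overlapped as shares of molecules. The interaction was called for 1 of 5, Klrc1, against 3.27%. The median log2 fold change of the 5 was 0.23 in lung and 0.57 in thymus for CD244, and -1.36 and -1.01 for tissue in CD244+ and CD244- cells, beside medians of -0.01, -0.02, -0.27 and -0.29 over all genes.

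**Figure D2:**
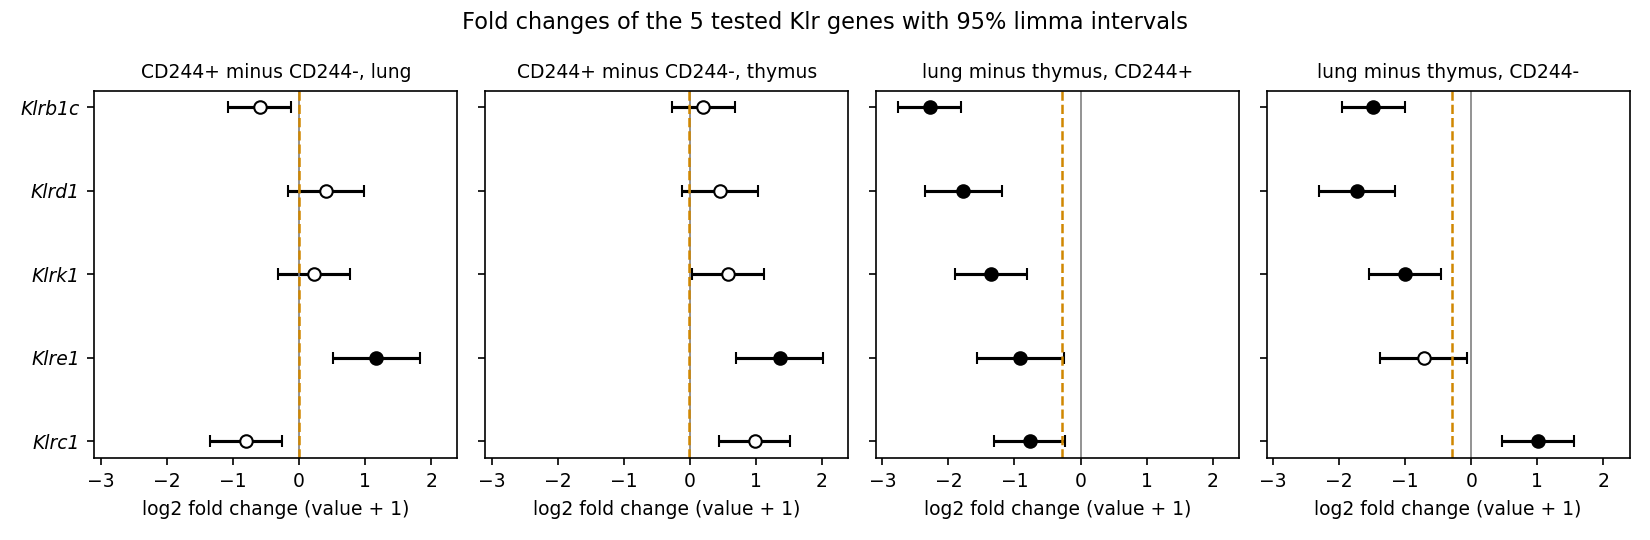
Log2 fold changes on the log2(value + 1) scale (horizontal axis) of the 5 tested Klr genes with 95% limma intervals, one panel per comparison, with filled points past an adjusted p of 0.05 and a dashed line at the median of all genes. Klre1 was filled in both CD244 panels, and Klrc1 lay right of 0 in the panel for lung minus thymus in CD244- cells.

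The shift of all genes between tissues of -0.27 and -0.29 came with the unlike totals, and at a common library total the medians were 0.00163 and -0.03. On that scale the fold changes, lung minus thymus, were -1.86 for Klrb1c, -1.35 for Klrd1 and -0.93 for Klrk1 in CD244+ cells (limma adjusted p = 7.23e-09, 0.000662 and 0.0133). In CD244- cells they were -1.05 for Klrb1c, -1.33 for Klrd1 and 1.43 for Klrc1 (limma adjusted p = 0.00172, 0.00174 and 0.000159). Klre1 had -0.50 and -0.40, and neither passed (limma adjusted p = 0.433 and 0.583). With lung CD244+ library 1 alone in its group, on the deposited scale, the CD244+ fold changes were -2.06 for Klrb1c, -1.78 for Klrd1 and -1.42 for Klrk1 (limma adjusted p = 1.64e-06, 0.00451 and 0.00846). The comparisons between tissues and between CD244 subsets share libraries, so their values are given side by side and are not counted as support for each other.

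**Figure D3:**
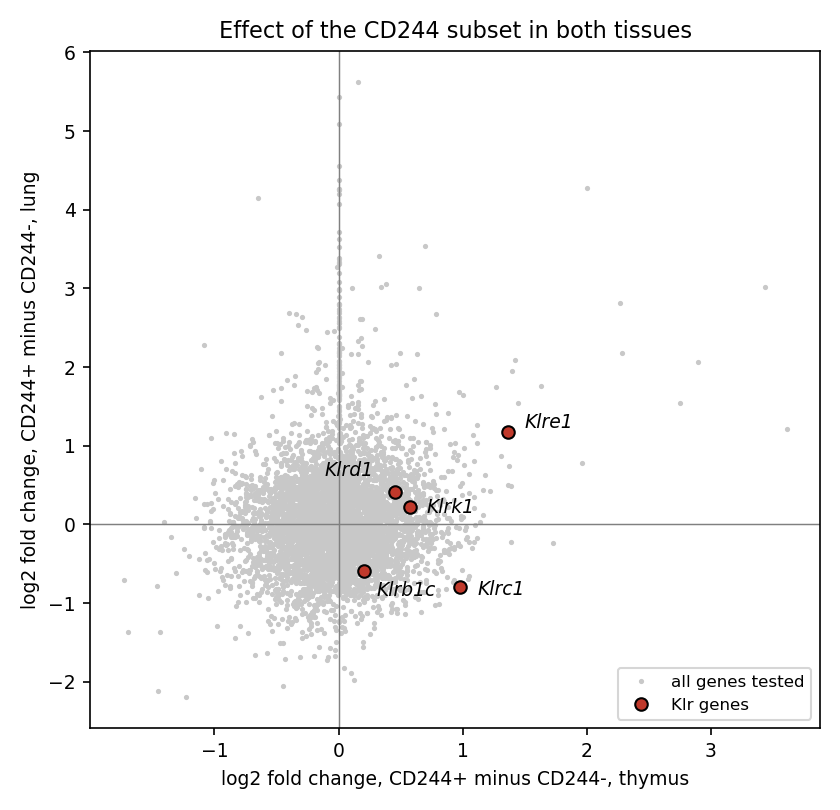
Log2 fold change of CD244+ minus CD244- cells in thymus (horizontal axis) and lung (vertical axis) for all 5138 tested genes (grey) and the 5 tested Klr genes (red). Klre1 lay up and right of the bulk of genes, at 1.37 and 1.17, and Klrc1 in the lower right quadrant, at 0.98 and -0.80.

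Molecules of the 7 genes together made 11.86 to 15.86 per 10000 in lung CD244+ and 13.81 to 17.08 in lung CD244- libraries, groups that overlap. In thymus they made 28.5 to 31.6 per 10000 in CD244+ and 17.52 to 22.63 in CD244- libraries, which lie apart. These totals are shares of all molecules, and lung CD244+ libraries held macrophage markers at 55.4 to 118 per 10000. T cell markers there were at 8.23 to 14.5, against 20.5 to 25.4 per 10000 in lung CD244- libraries. Their part in the lung totals was not tested. The make-up differed beside the total. Klrc1 supplied 16.9% to 32.3% of Klr molecules in lung CD244+ libraries, 39.0% to 44.4% in lung CD244-, 11.9% to 18.6% in thymus CD244+ and 7.60% to 13.6% in thymus CD244- libraries. Klre1 supplied 13.1% to 20.3% in lung CD244+ libraries, against 3.64% to 6.67% in lung CD244-, and 10.1% to 13% in thymus CD244+, against 5.24% to 6.65% in thymus CD244- libraries. These shares do not depend on how libraries were scaled.

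Transcripts of NKG2A per transcript of CD94 also differed. There were 2.08, 0.833 and 1.55 Klrc1 molecules per Klrd1 molecule in lung CD244+ libraries and 5.33, 6.67 and 1.64 in lung CD244- libraries. In thymus there were 0.593, 0.524 and 0.857 in CD244+ libraries and 0.425, 0.491 and 0.348 in CD244- libraries. In CD244- cells every lung library lay above every thymus library, and in CD244+ cells lung library 2, at 0.833, fell within the thymus range. Denominators were small in lung CD244- libraries, with 3, 3 and 14 Klrd1 molecules.

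**Figure D4:**
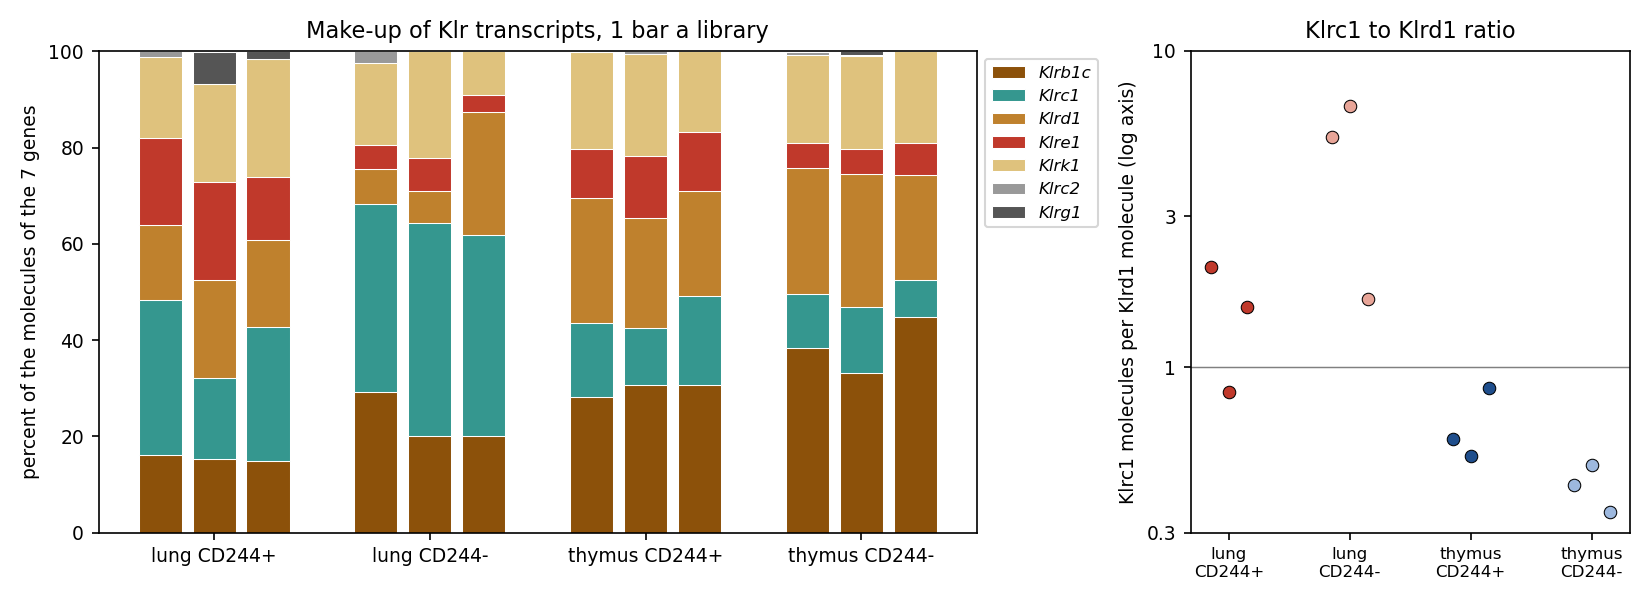
Left, percent of the molecules of the 7 Klr genes that each gene supplied (vertical axis), a bar per library in replicate order. Right, Klrc1 molecules per Klrd1 molecule in each library (log axis), which was below 1 in all 6 thymus libraries and above 1 in 5 of 6 lung libraries.

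Genes around these receptors were read from lists chosen with earlier results of these data known. Of 19 tested adaptor and proximal signalling genes, 4 rose and 2 fell with CD244 in lung, against 8.43% of all genes called in either direction, and the 4 that rose were Fcer1g, Tyrobp (3.00), Ptpn6 (1.89) and Syk (1.94 log2). In thymus only Fcer1g of the 19 passed, against 0.409% of all genes. Between tissues 2 were higher and 4 lower in CD244+ cells, against 14.9% called, and 2 higher and 1 lower in CD244- cells, against 10.7%. Ptpn6, the gene of SHP-1 on which NKG2A signals, had 25 molecules in lung CD244+, 1 in lung CD244-, 59 in thymus CD244+ and 71 in thymus CD244- cells. It fell by 3.18 ± 0.35 on the log2 scale in CD244- cells, lung minus thymus (limma adjusted p = 4.33e-12), where Klrc1 rose. Macrophages express Ptpn6, Tyrobp and Syk too, and their part in the lung CD244+ values was not tested.

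Of 14 tested transcription factor genes of the NK programme, 3 rose and 2 fell with CD244 in lung, against 8.43% of all genes, and 0 of 14 passed in thymus by limma, against 0.409%, where 0 had an unadjusted p under 0.05 and edgeR and DESeq2 called 0. Between tissues, 2 were higher and 5 lower in CD244+ cells, against 14.9% of all genes called, and 4 were lower in CD244- cells, against 8.52% called lower. Runx3, a RUNX factor of NK and cytotoxic T cells, had -0.68 ± 0.31 in CD244+ cells (limma adjusted p = 0.145) and fell by 0.98 ± 0.31 in CD244- cells, lung minus thymus (limma adjusted p = 0.0293). Runx1 rose by 2.36 ± 0.39 in CD244+ cells, lung minus thymus (limma adjusted p = 9.82e-07), with 63.5 molecules in lung CD244+ and 13 in lung CD244- cells. Id2, an inhibitor of E proteins needed for NK cells, fell in CD244+ and in CD244- cells, by log2 fold changes of -2.43 ± 0.19 and -2.23 ± 0.19 (limma adjusted p = 6.02e-20 and 1.35e-17). Tbx21, which encodes T-bet, fell by 1.16 ± 0.40 in CD244+ cells (limma adjusted p = 0.0350). The part of macrophage transcripts and of fewer T cell transcripts in the lung CD244+ values was not tested.

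Ligand genes were rare in these cells, with 4 of 14 listed genes detected and 3 tested. H2-T23, which encodes the Qa-1 ligand of NKG2A, had 5.98 molecules in lung CD244+, 5 in lung CD244-, 4.17 in thymus CD244+ and 9.12 in thymus CD244- cells. Cdh1, the gene of E-cadherin, a ligand of KLRG1, fell by 1.82 ± 0.41 in CD244+ cells, lung minus thymus (limma adjusted p = 0.000342). Of 7 tested genes among other lectin receptors of the complex, Clec7a (2.80) and Clec12a (1.60 log2) rose with CD244 in lung, against 8.43% of all genes called, both of them myeloid receptors. In thymus 0 of the 7 passed by limma, 0 had an unadjusted p under 0.05, and edgeR and DESeq2 called 0. Of 13 other tested NK receptor genes, 3 rose and 1 fell with CD244 in lung and 1, Cd7, rose in thymus (1.31 log2, limma adjusted p = 0.00468), against 8.43% and 0.409% of all genes. Klrb1b, another receptor of the NK1.1 family, had 12.5, 1, 10.33 and 5.33 molecules in lung CD244+, lung CD244-, thymus CD244+ and thymus CD244- cells, with 70% of its nonzero values not whole.

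Over the 12 libraries, the genes with the pattern most like each member were found by Pearson r of log2(value + 1) among all tested genes other than members. Klrb1c was closest to the ribosomal protein genes Rpl13 (r = 0.990), Rps12 (0.989) and Rps3 (0.986), which follow the tissue. Klrd1 was closest to Pdcl3 (0.969), Rack1 (0.927) and Tes (0.923), and Klrk1 to Klra3 (0.935) and Itgae (0.930) among those reported. Klre1 was closest to Klra5 (0.952), a Ly49 gene, Pdgfb (0.928) and Gzmb (0.916), the gene of granzyme B. Klrc1 was closest to Tax1bp1 (0.865), Rsl1d1 (0.834) and Washc3 (0.825). Among the members themselves, r was 0.844 for Klrb1c with Klrk1, 0.827 for Klrb1c with Klrd1, 0.769 for Klrd1 with Klrk1 and 0.739 for Klre1 with Klrk1, and 0.00637 to 0.059 for Klrc1 with the other 4. The libraries share tissue and depth, and these r values are descriptions.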

How the data were processed

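RNA of 12 libraries of 100 sorted cells was measured with molecular barcodes in an oligo-dT primer, template switching and PCR, and ERCC spike-in RNA was added to each tube, per the labels' protocols. Per the submitters' processing notes, STAR (no version named) and mm10 were used. How reads were counted and scaled, and with which annotation, is not given in the sources used here. The deposited values are a signal made by the authors, the number of molecules times a constant of the library. Of the nonzero values 94.26% to 95.85% were whole multiples of the constant (tolerance 1e-06). Molecules were estimated in all 12 libraries by dividing by it, at 29696 to 71789 per library. The count tests of edgeR 4.0.16 and DESeq2 1.42.0, run as alternatives, had another criterion. At least 95% of low values had to be whole multiples (tolerance 0.1) of a step fitted from the smallest value up. The 9 libraries that met it were used, which left out lung CD244+ library 2 (79.8%), thymus CD244+ library 1 (50.0%) and thymus CD244- library 2 (0.486%). By the constant of the library these had 94.89%, 94.26% and 94.43% whole values, within the range of all 12 libraries. The fitted step depends on the smallest value, so the criterion does not show that they are less whole. Only lung CD244- kept 3 libraries in the count tests, and the other groups had fewer.

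All 5138 genes above 1 unit in at least 3 libraries were tested on log2(value + 1) with limma 3.58.1 (trend and robust options, R 4.3.3) in a model of 4 groups, which gave 6 comparisons. P-values are two-sided and adjusted by Benjamini-Hochberg over all tested genes, with a threshold of 0.05. Ratios of molecules have exact 95% binomial intervals, and intervals and floors (3 molecules) cover counting error only. In a self-test on simulated data, the model was checked for known changes.

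The members, lists and tests were chosen with earlier results of these data known. Named genes were the 7 members, Cd244 and Cxcr6, in each comparison up to 4 called members of each list, taken by p-value, and for each called member the 3 other genes with the highest Pearson r. Not all are printed, and 1 of the genes like Klrk1 is not reported here. Klr sequences come from RefSeq, and genes and positions from GENCODE M21. Alternatives were other scalings, filters, pseudocounts, sample weights, a replicate block, only the libraries compared, each library left out, and lung CD244+ library 1 alone in its group.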

Additional observations from a re-analysis of the deposited data

Results flagged for a closer look

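For Klrc1, every CD244+ library was below every CD244- library in lung, and in thymus every CD244+ library was above every CD244- library. The difference of CD244+ minus CD244- cells was unlike in lung and thymus, with an interaction of -1.778 on the log2 scale, limma adjusted p = 0.00129. It was not called with T cell receptor scaling, by edgeR or by DESeq2. Lung CD244+ libraries also held macrophage transcripts and fewer T cell transcripts, whose part was not tested. Among the other genes named, the interaction was -1.989 for Cxcr6 (limma adjusted p = 0.0490), whose molecules were few in lung CD244+ libraries 2 and 3.

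It was 2.797 for Clec7a, 2.24 for Ptpn6, 2.354 for Tyrobp, 2.122 for Syk, 2.437 for Zeb2, 2.036 for Irf8, 2.901 for Fcgr3 and -1.471 for Gata3, all past the limma threshold. Apart from Gata3, which fell with CD244 in lung, these rose with CD244 in lung, beside the macrophage markers of the lung CD244+ libraries, whose part was not tested. No group has 4 or more samples, so single samples were not looked at for distance from their group.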

How the results depend on the processing

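Of 740 values of the 5 tested members under alternatives, 641 kept their direction and side of the threshold, called or not. With the sign kept, 61 lost the call and 14 gained one, and 24 changed sign. Sign changes of Klrc1, Klre1 and Klrk1 between tissues in CD244+ cells also lost a call. Between tissues in CD244+ cells, the Klre1 call passed in 7 of 25 alternatives and the Klrc1 call in 12 of 25. The Klre1 call in thymus passed in 13 of 25. Klrb1c stayed lower in lung in 25 of 25 alternatives in CD244+ cells, and the Klre1 effect averaged over tissues passed in 24 of 24. Members called in CD244+ cells between tissues numbered 5, against 3 with quantile normalization, at a common total, with no filter, with a pseudocount of 0.5 and with lung CD244+ library 1 alone, 2 with edgeR, and 1 with T cell receptor scaling and with DESeq2. In CD244- cells they numbered 4, against 3 with quantile normalization, at a common total and with edgeR, 2 with DESeq2 and 1 with T cell receptor scaling. With CD244 in lung they numbered 1, against 2 at a common total and with a pseudocount of 5, 3 with T cell receptor scaling and with the stricter filter, and 0 with library 1 alone and with DESeq2. In thymus they numbered 1, against 2 with the stricter filter and with sample weights, and 0 at a common total, with T cell receptor scaling, with no filter, with a pseudocount of 0.5, with edgeR and with DESeq2. Averaged they numbered 1, against 3 with T cell receptor scaling. The interaction numbered 1, against 0 with T cell receptor scaling, library 1 alone, edgeR and DESeq2. Where the count was 0, 1 to 3 members had an unadjusted p under 0.05. With 1 library left out the counts ran from 3 to 5 and 3 to 4 between tissues in CD244+ and CD244- cells, 0 to 2 in lung, 0 to 1 in thymus, 1 to 2 averaged and stayed at 1 for the interaction. The causes of these changes were not tested.

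Of the 24 sign changes, 9 came with scaling to T cell receptor genes. Under it the median of all genes was 0.59 with CD244 in lung and 0.69 between tissues in CD244+ cells, against -0.00644 and -0.27 on the deposited scale. It gave Klrb1c 0.18 and Klrc1 0.0188 in lung, Klrb1c 0.26 averaged, Klrc1 0.66, Klre1 0.47 and Klrk1 0.0727 between tissues in CD244+ cells, and interactions of 0.66 for Klrd1, 0.64 for Klre1 and 0.37 for Klrk1. The near-zero Klrd1 interaction turned to 0.065 with quantile normalization, 0.0123 with a pseudocount of 0.5, 0.0354 without lung CD244+ library 3, 0.51 without lung CD244- library 3, 0.0677 without thymus CD244+ library 1 and 0.13 without thymus CD244- library 3. That of Klre1 turned to 0.0388 without lung CD244+ library 3, 0.0481 with library 1 alone, 0.0216 with edgeR and 0.0495 with DESeq2. Klrc1 averaged turned to -0.0351 without lung CD244+ library 1 and -0.0397 without thymus CD244- library 3, and between tissues in CD244+ cells to 0.0576 with edgeR and 0.0678 with DESeq2. Klrk1 in lung turned to -0.00202 without lung CD244- library 3. With 1 library left out, the Klrk1 effect in lung ran from -0.00202 to 0.44, Klrc1 averaged from -0.0397 to 0.21, the Klrd1 interaction from -0.33 to 0.51 and the Klre1 interaction from -0.31 to 0.0388.

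Over all genes the calls (lung, thymus, averaged, tissue in CD244+, tissue in CD244-, interaction) numbered 433, 21, 242, 765, 550 and 168 by limma, 172, 12, 68, 291, 215 and 22 by edgeR, and 84, 6, 40, 146, 117 and 11 by DESeq2. T cell receptor scaling gave 1153, 9, 527, 1320, 156 and 280. The stricter filter gave 250, 157, 453 and 104 for lung, averaged, tissue in CD244+ and interaction, and library 1 alone 162, 120, 365 and 62. The tissue count in CD244- cells was 295 with quantile normalization and 311 at a common total, and the thymus count 14 at a common total and 10 to 13 without thymus CD244+ library 2 or 3 or thymus CD244- library 1 or 2. With the replicate number as a block, 3 members in place of 5 were called between tissues in CD244+ cells (Klrc1 at an adjusted p of 0.0513 and Klre1 at 0.0520 by limma), and no other count of members changed. Deviations of same-numbered libraries correlated at -0.0284 to 0.0157. Counting error can hide a shared source, so these values cannot decide whether the numbers pair the samples. Depth limits Klrc2, Klrg1 and the lung CD244- values of Klrd1 and Klre1, which rest on few molecules.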
